A study of Mus musculus with 8 samples.

Results

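The genes described here encode proteins with Tudor domains that read symmetrically dimethylated arginine, the mark that the methyltransferase Prmt5 places on other proteins. A list of 10 genes (Tdrd1, Tdrd3, Tdrd5, Tdrd6, Tdrd7, Tdrd9, Tdrd12, Tdrkh, Snd1 and Stk31) was taken by name, and its rule uses no measured value. Of these, 9 had a count among the 21444 genes with a count in at least 1 library, and 8 passed the filter on low counts that left 10990 genes for testing. Tdrd6 was not analysed here, and Tdrd9 did not pass the filter. RNA had been sequenced from primordial germ cells of mouse embryos at embryonic day 11.5, sorted by the GFP of the dPE_Oct4 reporter, in 4 Control and 4 Prmt5 KO libraries of 50 pg of RNA each. Control embryos were Blimp1Cre;Prmt5flox/+ and Prmt5 KO embryos were Blimp1Cre;Prmt5flox/flox, on a mixed C57BL/6 and 129 background. Both groups therefore carried the Cre, which is driven by Blimp1, and the Control had 1 floxed and 1 wild-type copy of Prmt5. Nothing in the labels ties libraries to embryos, so every p-value here speaks only of the variation among these 8 libraries, part of which may be technical.

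A Tudor domain folds into a small barrel whose aromatic cage can hold a methylated arginine. In germ cells such proteins dock on methylated arginines of PIWI proteins and of the helicase Ddx4, and gather them in granules beside mitochondria where piRNAs, the small RNAs that silence transposons, are made. Several members are known from the fetal and adult testis, while Snd1 and Tdrd3 are made in most cell types. Tdrd3 is best known as a reader of the asymmetric form of the mark on histones and RNA polymerase II, so it stands apart from the rest of the list by background.

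The libraries held between 1811433 (Control 3) and 6549498 (Prmt5 KO 3) counts over gene values, and 1 read was worth 0.549 to 0.149 CPM, the unit used below for levels (reads scaled to a library of fixed size, with TMM factors). For the targeted gene the groups followed the labels: Prmt5 stood at 89.4, 171, 172 and 118 CPM in Control 1 to 4 and at 39.9, 40.5, 35.3 and 26.4 CPM in Prmt5 KO 1 to 4 (log2 fold change -1.95, adjusted p = 0.0388, edgeR's quasi-likelihood test). That call was lost in 12 of 23 alternatives, with the log2 fold change between -2.25 and -1.54. Which exons the floxed allele loses is not stated, and the remaining Prmt5 reads are not assigned to a part of the gene. All 13 markers of primordial germ cells passed the filter and none passed the test (Dazl at a log2 fold change of -0.61, adjusted p = 0.759, and Dppa5a at 0.33, adjusted p = 0.809, edgeR), and their summed level was 3442 to 4005 CPM in Control and 3399 to 4242 CPM in Prmt5 KO. The summed markers of the somatic gonad and mesonephros reached 527 CPM in Prmt5 KO 1, against 40.4 to 81.3 CPM in Control and 38.5 to 75.2 CPM in the other Prmt5 KO libraries. On the first axis of a multidimensional scaling plot Prmt5 KO 4 lay at -2.69 and the other libraries between 0.21 and 0.86. On the second axis Prmt5 KO 1 lay at -2.26 and the other libraries between -0.39 and 0.89. The members' log2 fold changes without Prmt5 KO 1 and 4 are given further on.

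Per length of transcript, Stk31 was the most abundant member and Tdrd9 the least. On the scale of CPM per kilobase of the counted transcript, the Control mean was 53.9 ± 14.7 (SD, n = 4) for Stk31, 39.3 ± 5.41 for Tdrd12 and 34.9 ± 4.17 for Snd1. Tdrkh (17.2 ± 4.77), Tdrd3 (17.0 ± 3.70) and Tdrd5 (13.7 ± 2.53) formed a middle group whose ranges of mean ± SD overlapped. Tdrd1 (1.85 ± 2.41), Tdrd7 (1.51 ± 2.37) and Tdrd9 (0.321 ± 0.525) were the lowest, with SDs above their means. In Prmt5 KO the order was Stk31 (42.1 ± 10.5), Snd1 (34.5 ± 9.28), Tdrd12 (28.0 ± 12.0), Tdrd5 (14.1 ± 4.04), Tdrd3 (9.22 ± 5.64), Tdrkh (8.58 ± 1.47), Tdrd7 (4.55 ± 4.60), Tdrd1 (1.35 ± 1.07) and Tdrd9 (0.165 ± 0.211). In Control the ranges of mean ± SD of neighbours in the order were separate between Snd1 and Tdrkh and between Tdrd5 and Tdrd1, and in Prmt5 KO those of all neighbours overlapped. The order depends on which transcript gives the length: with Tdrkh-201, of 2642 bases, Tdrkh was at 36.3 ± 10.2 CPM per kilobase in Control and 18.6 ± 3.36 in Prmt5 KO, above Tdrd3 and Tdrd5 in both groups.

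**Figure D1:**
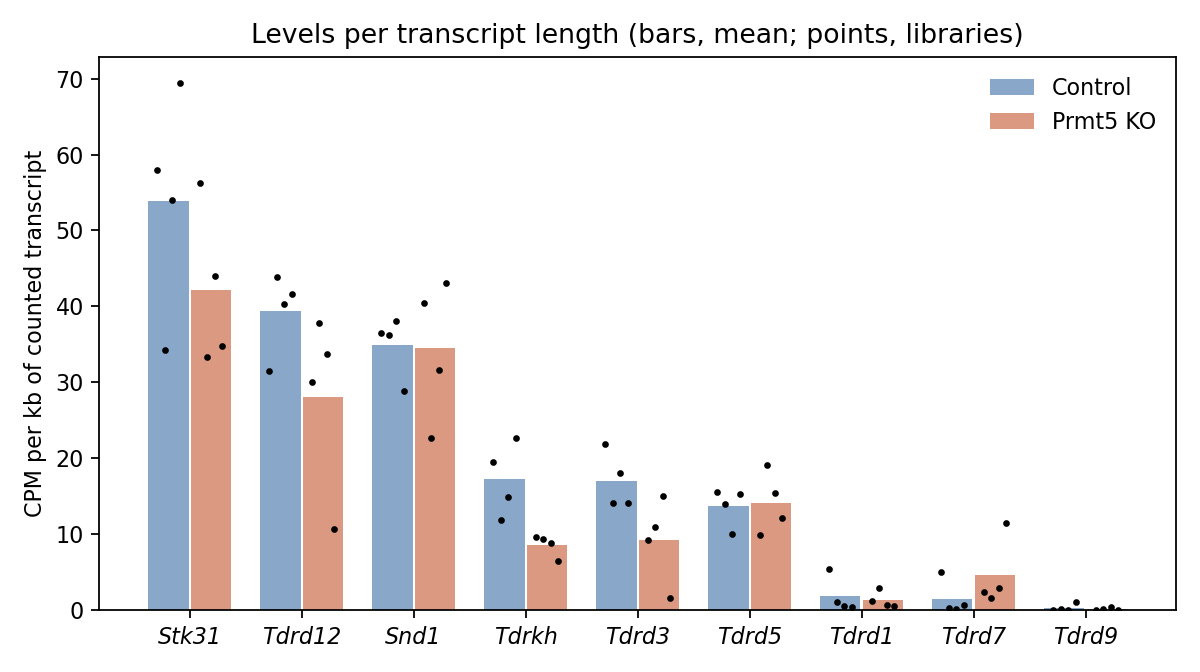
Level of each member in CPM per kilobase of its counted transcript, mean of 4 libraries, Control and Prmt5 KO side by side. Stk31, Tdrd12 and Snd1 lie highest in Control, and Tdrd1, Tdrd7 and Tdrd9 lie lowest in both groups.

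The windows of 250 bases before the RefSeq start sites (GRCm38.p6) were read for the 9 members with a count, because germline genes are often known by CpG-rich promoters and by the motifs CACGTG, bound by E-box factors, and GCGGGAA, of the E2F type. The windows held 3 (Tdrd1) to 40 (Tdrd5) CpG dinucleotides with a median of 19, against a median of 6 and quartiles of 2 and 16 over 32817 RefSeq promoters. The windows of 5 members (Tdrd5, Tdrd3, Tdrd7, Stk31 and Tdrkh) lay above the upper quartile, and those of Tdrd1 and Tdrd12 (5) below the median. Where a gene had several RefSeq starts, only the one nearest to the counted transcript was read. For Tdrd1, with 3 starts, that window lies within the gene, downstream of the gene's start. Its transcripts had equal counts, so the counted one was taken for its length, and the windows of its other starts were not read. Searched on both strands, CACGTG stood in 2 of the 9 windows and in 6.02% of all promoters, and GCGGGAA in 1 (Tdrd5) and in 3.82%. The RefSeq start of Tdrd5 lies 316 bases downstream of the start of its counted transcript. Its window, with the highest CpG count and the GCGGGAA, thus lies downstream of that transcript's start, and it touches 3 annotated exons. None held both, as 0.338% of all promoters did. Those of 3 members are printed here, namely Tdrkh, the member whose groups did not overlap, and Stk31 and Tdrd9, whose windows hold CACGTG. Capitals mark each CG and each CACGTG.

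The window of Tdrkh spans chr3:94412994-94413243 on the plus strand, that of Stk31 chr6:49395354-49395603 on the plus strand and that of Tdrd9 chr12:111971309-111971558 on the plus strand, all in GRCm38.p6 and 5′ to 3′.
Tdrkh: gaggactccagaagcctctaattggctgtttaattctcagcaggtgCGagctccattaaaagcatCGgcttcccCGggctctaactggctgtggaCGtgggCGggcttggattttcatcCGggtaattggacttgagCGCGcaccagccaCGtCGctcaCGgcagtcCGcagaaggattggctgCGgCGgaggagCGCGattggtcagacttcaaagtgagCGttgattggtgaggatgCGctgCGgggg
Stk31: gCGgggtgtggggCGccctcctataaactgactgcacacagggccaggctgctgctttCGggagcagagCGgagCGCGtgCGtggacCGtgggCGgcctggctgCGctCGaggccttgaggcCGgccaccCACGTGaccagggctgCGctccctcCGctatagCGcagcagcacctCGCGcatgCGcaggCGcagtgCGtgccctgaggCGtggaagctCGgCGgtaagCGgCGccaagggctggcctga
Tdrd9: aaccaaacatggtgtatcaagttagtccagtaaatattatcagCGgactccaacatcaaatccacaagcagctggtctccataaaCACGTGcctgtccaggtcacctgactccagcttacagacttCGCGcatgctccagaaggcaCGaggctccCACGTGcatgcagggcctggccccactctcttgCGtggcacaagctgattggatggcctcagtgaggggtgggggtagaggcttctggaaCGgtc
Tdrkh held 19 CG and no CACGTG, Stk31 held 26 CG and 1 CACGTG that began 120 bases before the start, and Tdrd9 held 8 CG and 2 CACGTG that began 165 and 95 bases before it. A match is a description of the letters only.

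None of the 8 tested members passed the test over all genes (edgeR's quasi-likelihood test, Benjamini-Hochberg adjusted p under 0.05), where 3 of 10990 genes (0.0273%) did. At an unadjusted p under 0.05 there was 1 member, Tdrkh, lower in Prmt5 KO, against 8.15% of all genes in either direction and 3.69% lower. Tdrkh was also the only member whose groups did not overlap, with all 4 Control libraries above all 4 Prmt5 KO libraries, as for 2.27% of genes in that direction and 4.90% in either. In all, 6 of the 8 had a log2 fold change below 0, as had 47.3% of all genes, and the median was -0.42 against 0.03 over all genes. Summed over the 9 members, the level was 637, 471, 544 and 625 CPM in Control 1 to 4 and 503, 423, 471 and 411 CPM in Prmt5 KO 1 to 4. The groups overlapped only in that Prmt5 KO 1 lay above Control 2. Without Prmt5 KO 1, the library with the high somatic markers, the sums were 411 to 471 CPM in Prmt5 KO. All were then below the lowest Control sum of 471 CPM, by less than 1 CPM. Without Control 2 instead, the lowest Control sum was 544 CPM, above every Prmt5 KO sum. Only this pair of libraries overlapped, so leaving out either parts the groups of necessity and adds no support. Stk31 and Snd1, of the highest mean CPM in both groups, weigh most in the sums. How often sums over other sets of genes part in this way was not tested. In bulk RNA of sorted cells, fewer cells that express a gene and less RNA of it per cell cannot be told apart.

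**Figure D2:**
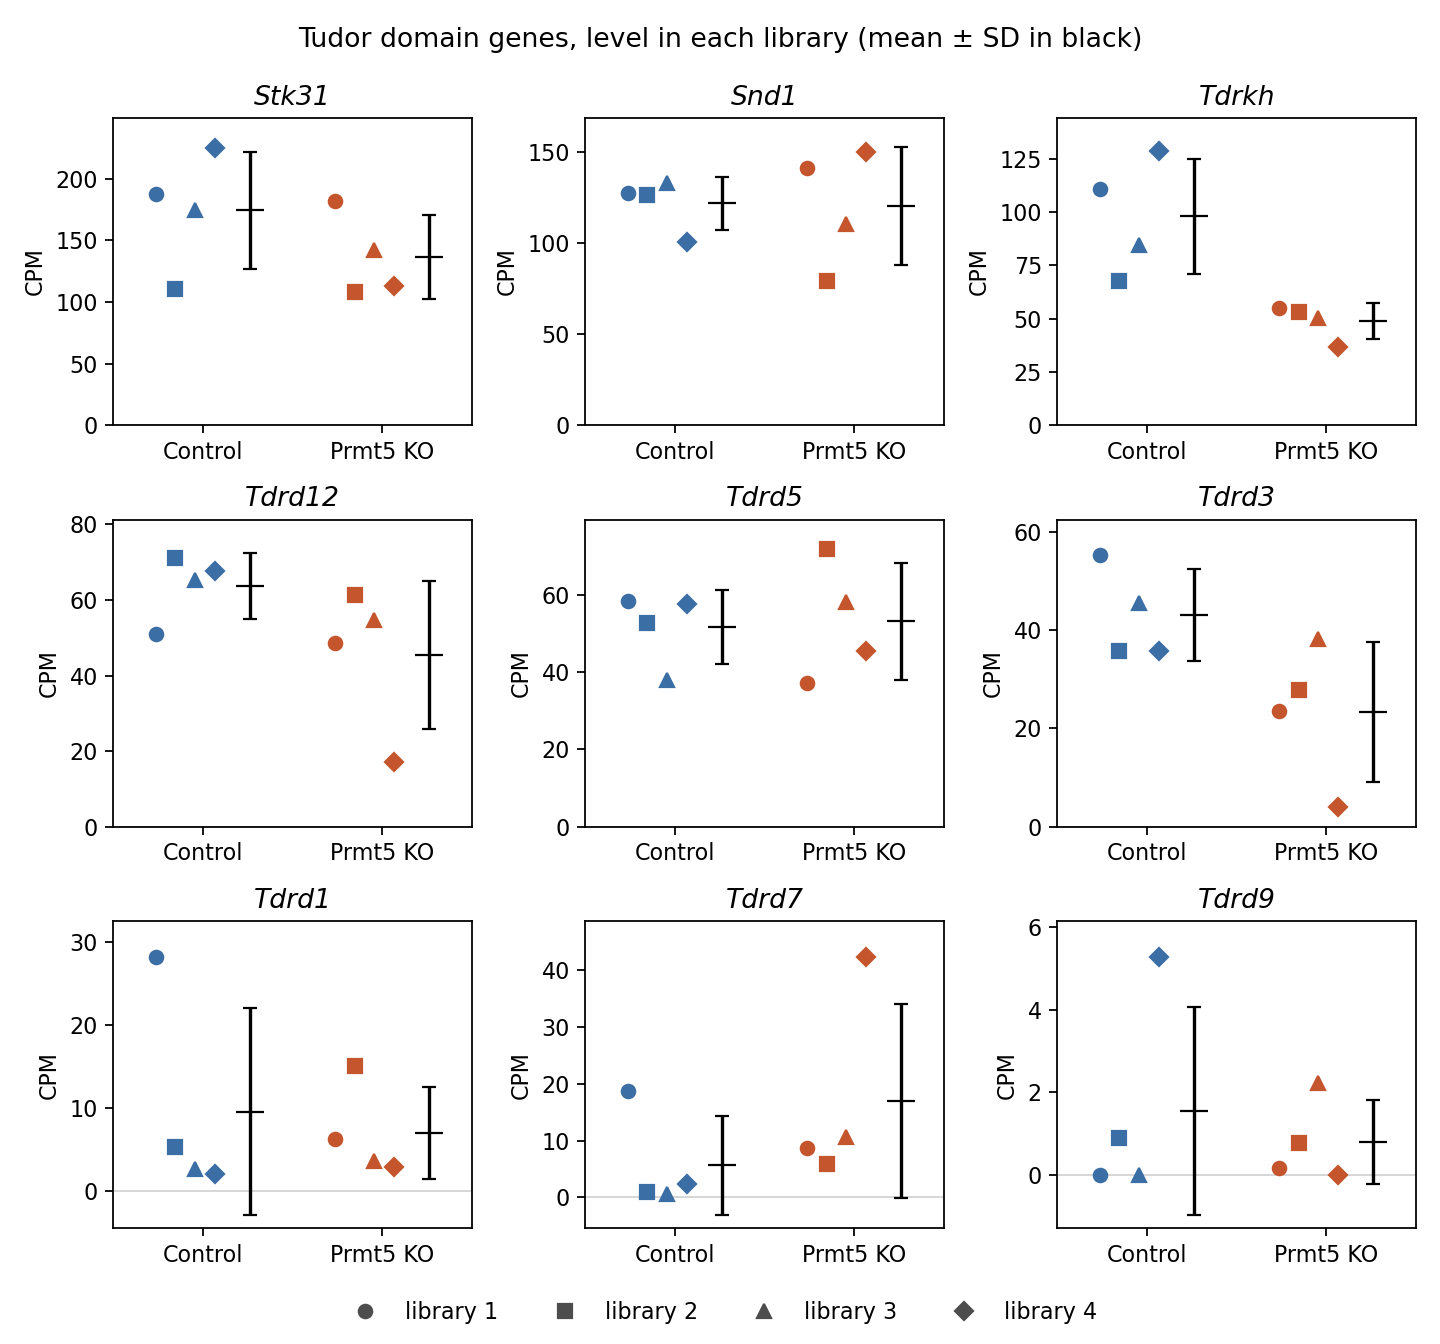
Level (CPM) of the 9 members in each library, Control in blue and Prmt5 KO in orange, marker shape giving the library number and black bars the mean and SD of 4 libraries. Tdrkh is the member whose groups do not overlap, and the panels of Tdrd1, Tdrd7 and Tdrd9 show 1 library well above the others of its group.

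**Figure D3:**
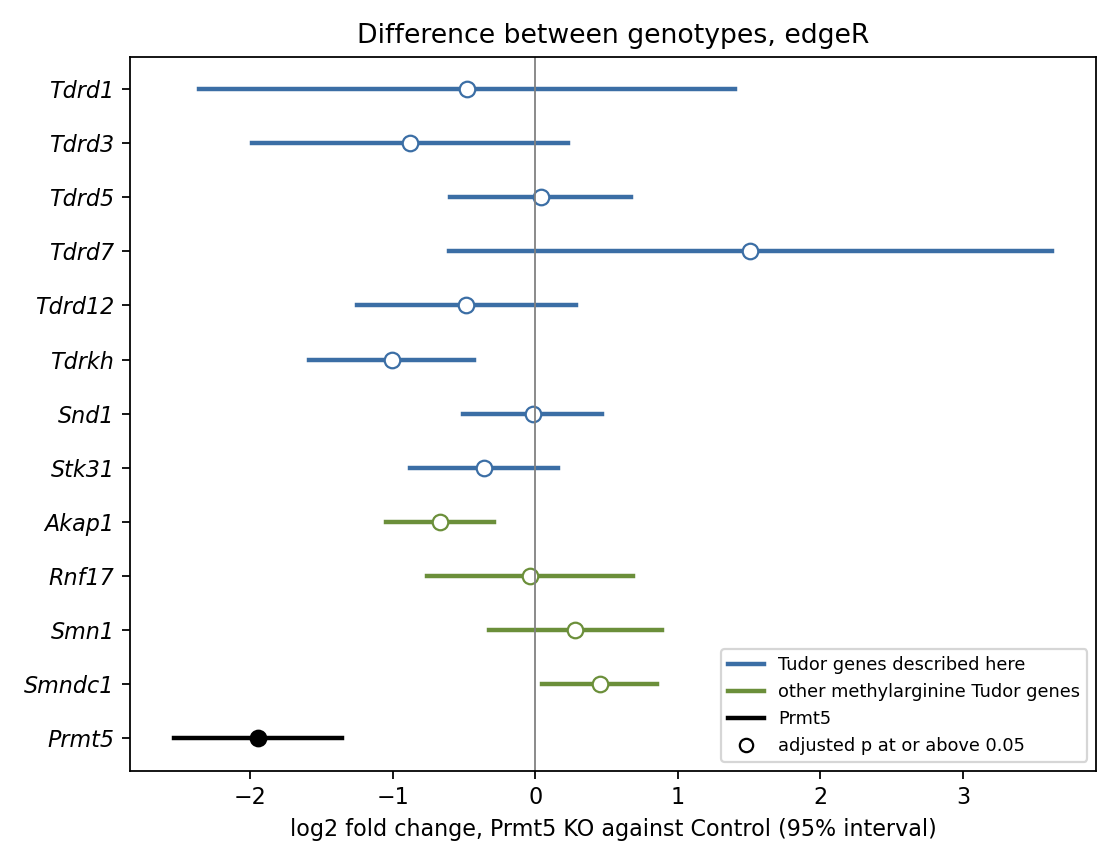
Log2 fold change of each tested member, Prmt5 KO against Control, with its 95% interval from edgeR. The interval of Tdrkh, from -1.58 to -0.43, lies below 0 and those of the other 7 include 0.

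Tdrkh carries KH domains and a Tudor domain, sits on the outer membrane of mitochondria, and holds PIWI proteins there while the ends of their piRNAs are trimmed. Its gene (ENSMUSG00000041912) lies on chromosome 3 from 94413273 to 94434668 on the plus strand, and its counted transcript Tdrkh-202 has 14 exons and 5692 bases. It stood at 111, 67.9, 84.5 and 129 CPM in Control 1 to 4 and at 55.0, 53.3, 50.4 and 36.6 CPM in Prmt5 KO 1 to 4. The highest Prmt5 KO library lay below the lowest Control library. The mean was 98.0 ± 27.1 CPM (SD, n = 4) in Control and 48.9 ± 8.36 CPM (n = 4) in Prmt5 KO, a log2 fold change of -1.01 (SE 0.27) with a 95% interval from -1.58 to -0.43. Its unadjusted p was 0.00227 in edgeR, rank 85 of 10990 genes, and its adjusted p was 0.292, so it did not pass. With DESeq2, which called 107 genes (0.974%) and 45 lower (0.409%), its adjusted p was 0.0311 at a log2 fold change of -1.01, and so the call depends on the tool. In every one of the 23 alternatives its log2 fold change was below 0, from -1.29 without Control 2 and 3, the shallowest libraries, to -0.85.

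The exons of Oaz3, on the opposite strand, share 2255 bases (39.6%) with Tdrkh-202. No source used here says if counting was by strand, and no Oaz3 transcript had a count. The second transcript, Tdrkh-201, shares no base with Oaz3. In a fit of 35248 transcripts, of which 1 was called (0.00284%), the log2 fold change was -0.97 (adjusted p = 0.307, edgeR) for Tdrkh-202 and -0.93 (adjusted p = 0.342, edgeR) for Tdrkh-201. The deposited counts of the pair are nearly alike, 2781 and 2764 in all, so they are not independent.

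Akap1, the gene of lowest unadjusted p among the further Tudor genes of methylarginine readers, shares with Tdrkh the pairing of a KH and a Tudor domain on the outer mitochondrial membrane. It stood at 209, 271, 200.2 and 256 CPM in Control 1 to 4 and at 141, 144, 178 and 126 CPM in Prmt5 KO 1 to 4. Its groups did not overlap, as for 2.27% of all genes tested in that direction and 4.90% in either. Akap1 was picked for the lowest p of 4 tested genes, which favours such a gene. The log2 fold change was -0.67 (SE 0.18, 95% interval -1.05 to -0.29, unadjusted p 0.00219), the adjusted p was 0.292 in edgeR and 0.0547 in DESeq2, and the 23 alternatives gave -0.77 to -0.53.

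Tdrd1, Tdrd6 and Tdrd7 carry several Tudor domains each and build the germ granules of spermatogenic cells. Tdrd1 (chromosome 19, 56826209 to 56870012, plus strand), which binds the PIWI protein Piwil2, stood at 28.2, 5.36, 2.74 and 2.11 CPM in Control 1 to 4 and at 6.25, 15.1, 3.72 and 2.99 CPM in Prmt5 KO 1 to 4. Control 1 alone was high in Control and Prmt5 KO 2 the highest in Prmt5 KO, and the groups overlapped. The log2 fold change was -0.48 (SE 0.87, 95% interval -2.36 to 1.40, adjusted p = 0.943, edgeR), and without Control 1 it was 1.06, so its direction turned when 1 library was left out. Its counts were 5 to 167 reads a library.

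Tdrd7 (chromosome 4, 45965334 to 46034761, plus strand) pairs Tudor domains with LOTUS domains and is known in the lens as well as in germ cells. It stood at 18.8, 0.893, 0.549 and 2.29 CPM in Control 1 to 4 and at 8.78, 5.81, 10.7 and 42.4 CPM in Prmt5 KO 1 to 4. Apart from Control 1, every Control library was below every Prmt5 KO library. The log2 fold change was 1.51 (SE 0.98, 95% interval -0.61 to 3.62, adjusted p = 0.750, edgeR), the only value above 0.1 among the tested members. Without Control 1 it was 3.60 (adjusted p = 0.496, edgeR), and without Prmt5 KO 4 it was 0.52 (adjusted p = 0.940, edgeR), so either library moves it more than 1.5 times. At 1, 2 and 13 counts in Control 3, 2 and 4, and 111 in Control 1, the level in Control rests on few reads in 3 of 4 libraries.

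Tdrd5, Tdrd9 and Tdrd12 act in the silencing of transposons by piRNAs in the fetal male germ line. Tdrd5 (chromosome 1, 156255296 to 156303664, minus strand), a LOTUS and Tudor protein, stood at 58.3, 52.7, 37.9 and 57.7 CPM in Control 1 to 4 and at 37.1, 71.9, 58.2 and 45.4 CPM in Prmt5 KO 1 to 4, and the groups overlapped throughout. Its log2 fold change was 0.04 (SE 0.29, 95% interval -0.60 to 0.67, adjusted p = 0.990, edgeR), an interval that leaves room for a change of either sign. An antisense gene, 4930518J20Rik, shares 176 bases with its counted transcript, and no transcript of it had a count.

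Tdrd12 (chromosome 7, 35469098 to 35537745, minus strand), a helicase-like Tudor protein that works with Piwil2, stood at 51.0, 71.0, 65.3 and 67.5 CPM in Control 1 to 4 and at 48.6, 61.2, 54.6 and 17.2 CPM in Prmt5 KO 1 to 4. Prmt5 KO 4 alone was far below the rest, and the other 3 Prmt5 KO libraries overlapped with Control. The log2 fold change was -0.48 (SE 0.36, 95% interval -1.25 to 0.28, adjusted p = 0.773, edgeR), and without Prmt5 KO 4 it was -0.21 (adjusted p = 0.877, edgeR). Tdrd9 (chromosome 12, 111971559 to 112068854, plus strand), a helicase that works with Piwil4, had 0, 2, 0 and 30 reads in Control 1 to 4 and 1, 4, 15 and 0 reads in Prmt5 KO 1 to 4. These 52 reads were too few for the test, and they are equal to 0 to 5.28 CPM in Control and 0 to 2.23 CPM in Prmt5 KO.

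Stk31 (chromosome 6, 49395604 to 49469501, plus strand), a Tudor protein with a kinase domain made mainly in germ cells, stood at 187, 111, 175 and 225 CPM in Control 1 to 4 and at 182, 108, 143 and 113 CPM in Prmt5 KO 1 to 4. Control 2 was as low as the lowest Prmt5 KO libraries, and Prmt5 KO 1 lay within Control. The log2 fold change was -0.36 (SE 0.24, 95% interval -0.88 to 0.16, adjusted p = 0.756, edgeR), and over the libraries left out in turn it ranged from -0.53 to -0.21.

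Snd1 and Tdrd3 are expressed in most cell types. Snd1 (chromosome 6, 28475139 to 28935162, plus strand) joins nuclease-like domains to a Tudor domain and binds methylated Sm proteins of the splicing machinery. It stood at 127, 126, 133 and 100.3 CPM in Control 1 to 4 and at 141, 78.9, 110.1 and 150.0 CPM in Prmt5 KO 1 to 4, with a log2 fold change of -0.02 (SE 0.23, 95% interval -0.51 to 0.47, adjusted p = 0.991, edgeR). Prmt5 KO libraries were both the lowest and the highest of the 8. Tdrd3 (chromosome 14, 87416639 to 87545504, plus strand), which works with the topoisomerase Top3b, stood at 55.3, 35.7, 45.5 and 35.7 CPM in Control 1 to 4 and at 23.5, 27.7, 38.1 and 3.99 CPM in Prmt5 KO 1 to 4. The groups overlapped through Prmt5 KO 3 alone, and Prmt5 KO 4 was the lowest by far, on 16 reads. The log2 fold change was -0.88 (SE 0.51, 95% interval -1.99 to 0.23, adjusted p = 0.703, edgeR), and without Prmt5 KO 4 it was -0.53 (adjusted p = 0.678, edgeR).

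**Figure D4:**
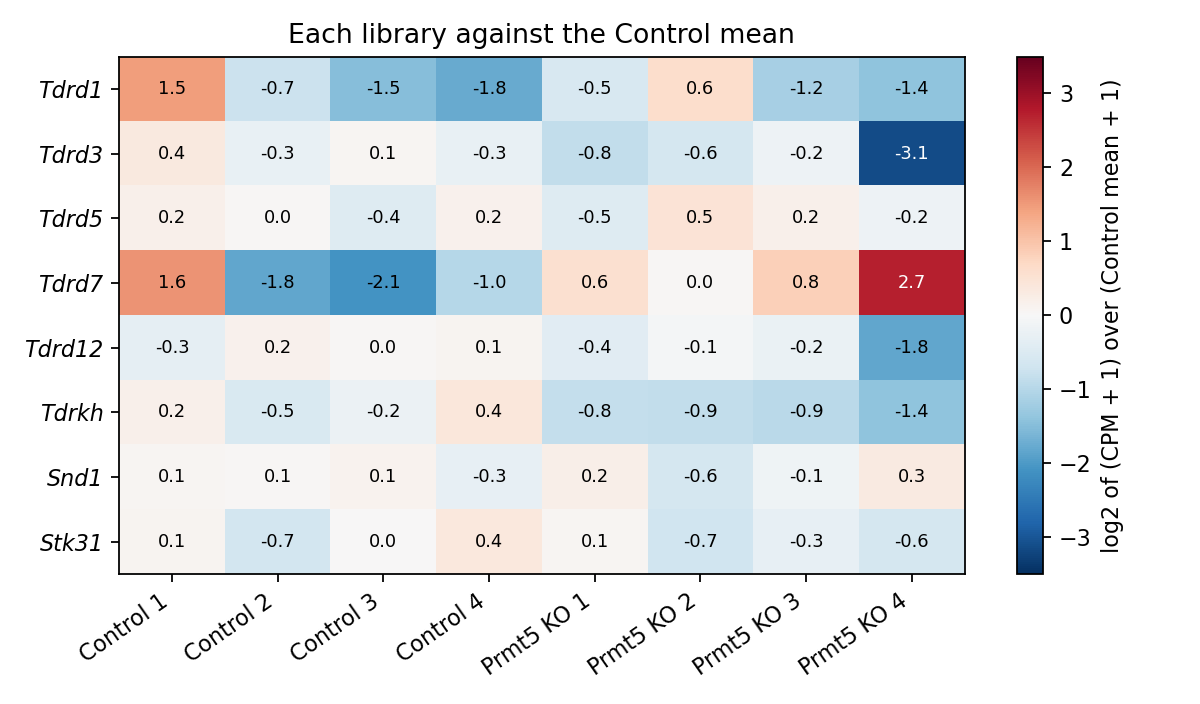
Log2 of each library's level of the 8 tested members over the Control mean, with a pseudocount of 1 CPM, colour and number giving the value. Prmt5 KO 4 stands out low for Tdrd3 at -3.14 and high for Tdrd7 at 2.71, while Tdrkh is between -0.82 and -1.40 in all 4 Prmt5 KO libraries.

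The spread between libraries differed widely among the members. Prmt5 KO 4 was the lowest Prmt5 KO library for 5 of the 9 members (Tdrd1, Tdrd3, Tdrd9, Tdrd12 and Tdrkh) and the highest for Tdrd7 and Snd1; Control 1 was the highest Control library for Tdrd1, Tdrd3, Tdrd5 and Tdrd7. Among Control libraries the coefficient of variation was 156% for Tdrd7 and 130% for Tdrd1, where counting alone would give 24.4% and 18.7%. It was 11.9% for Snd1, 13.8% for Tdrd12, 18.5% for Tdrd5 and 21.8% for Tdrd3. In edgeR the biological coefficient of variation was 0.91 for Tdrd7 and 0.82 for Tdrd1, above the common value of 0.49, and 0.24 to 0.28 for Snd1, Stk31 and Tdrkh.

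Transcript use was compared as the share of the counted transcript in all of a gene's transcripts. For 7 members the shares could be tested (4 libraries against 4, 2-sided exact permutation test, smallest possible p 0.0286). The smallest p was 0.0857 for Tdrd3-205, whose share was 30.6% ± 0.556 (SD, n = 4) in Control and 32.0% ± 0.846 (n = 4) in Prmt5 KO, and the lowest adjusted value over the 7 exact permutation tests was 0.4. The share of Tdrkh-202 was 50.6% ± 0.900 in Control and 49.8% ± 0.287 in Prmt5 KO, near equal as the pair carries nearly the same counts. For Tdrd12-201 it was 69.9% ± 3.51 and 75.2% ± 7.01 (exact permutation p = 0.257, n = 4 per group). The 4 transcripts of Tdrd1 had the same counts in every library, and so had Tdrd7-201 and Tdrd7-202. Reads of overlapping transcripts are shared in these counts, so the shares are of counts and not of molecules.

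The other genes of the pathway were given by lists chosen by function. Of 6 other Tudor genes that read methylarginine or are relatives of such readers, 4 had a count and were tested and none passed (median log2 fold change 0.12); beside Akap1, Smndc1, a Tudor protein of splicing factors, was at 0.45 (unadjusted p 0.031, adjusted p = 0.563, edgeR). Of 18 Tudor genes that read methyllysine, 17 were tested, with 9 above 0, 8 below and a median of 0.04. Sgf29 was at -0.48 (adjusted p = 0.672, edgeR) and Trp53bp1, which reads a methylated histone at DNA breaks, at 0.28 (adjusted p = 0.756, edgeR). Exons of Sgf29 share 169 and 61 bases with a pair of genes on the opposite strand, and those of Trp53bp1 share 2130 bases with Tubgcp4. The median over all genes was 0.03.

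A list around the making of the mark held Prmt5, its partners Wdr77, Clns1a, Riok1 and Coprs, and the methyltransferases Prmt7 and Prmt9. Not all of these make the mark themselves. All 7 were tested and 1, Prmt5 itself, was called, lower (0.00910% of all genes tested were called lower). The values of Prmt7 and Prmt9 were picked out after they were seen, at -0.44 (unadjusted p 0.048, adjusted p = 0.607, edgeR) and -0.71 (adjusted p = 0.632, edgeR). Of 17 PIWI proteins and partners, 15 had a count and 11 were tested, none passed, 8 were above 0 and 3 below, and the median was 0.05. Pld6, the mitochondrial nuclease that cuts piRNA precursors, was at -1.13 (adjusted p = 0.703, edgeR), and Mov10l1, the helicase that feeds them, at 0.73 (adjusted p = 0.783, edgeR). Piwil2, at 0.02 (adjusted p = 0.993, edgeR), and Ddx4, at 0.05 (adjusted p = 0.987, edgeR), the proteins on which the Tudor members dock, were also named after their values were seen. Both flipped sign under upper-quartile scaling, total-count scaling and limma voom, so no direction is given. All 5 genes of a list of Sm and Sm-like proteins and coilin, known targets of arginine methylation, were tested and none passed, with a median of -0.07, Snrpb at 0.34 (adjusted p = 0.756, edgeR) and Lsm4 at -0.18 (adjusted p = 0.949, edgeR).

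Markers of other cell types were measured beside the members. Summed endothelial markers were 274 to 359 CPM in Control and 300.1 to 418 CPM in Prmt5 KO, mostly Pecam1, which germ cells also make (log2 fold change -0.03, adjusted p = 0.982, edgeR). Kdr and Emcn were each at 0 in 7 of 8 libraries and Tie1 in 6. Flt1 stood at 21.4 CPM (86 reads) in Prmt5 KO 4, the library where Tdrd7 was highest, and at no more than 0.549 CPM in any other, and its part in the value of Tdrd7 was not tested. Tek stood at 28.9, 4.46, 7.68 and 8.09 CPM in Control 1 to 4 and at 72.4, 12.2, 53.7 and 71.0 CPM in Prmt5 KO 1 to 4 (log2 fold change 2.05, adjusted p = 0.409 in edgeR and 0.0429 in DESeq2), and Esam was at -0.20 (adjusted p = 0.971, edgeR). Control 1 was thus the highest Control library for Tek as for Tdrd7 and Tdrd1. The other endothelial markers varied: Control 1 was the lowest Control library for Pecam1 (241 CPM), and held the only Control read of Tie1 and of Emcn. Among Control libraries Esam was highest in Control 2, and Kdr and Flt1 in Control 3. Cdh5 stood at 1.01 CPM in Control 1 and was highest in Control 4, at 5.80 CPM. The part of endothelial RNA in the values of Tdrd7 and Tdrd1 was not tested. Summed blood and macrophage markers were 20.96 to 43.1 CPM in Control and 6.98 to 44.0 CPM in Prmt5 KO, mostly Csf1r (log2 fold change -0.51, adjusted p = 0.835, edgeR), whose exons share 873 bases with Hmgxb3 on the opposite strand, while Ptprc and Hbb-bs were each at 0 in 7 of 8 libraries. Adgre1 stood at 8.61 CPM (51 reads) in Prmt5 KO 1 and Cd68 at 4.26 CPM (22 reads) in Prmt5 KO 2, and each was at 0.893 CPM or less in all other libraries.

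Of 16 somatic markers 15 had a count and 6 were tested, and none passed. Acta2 stood at 208 CPM and Col1a1 at 92.9 CPM in Prmt5 KO 1, against at most 7.13 and 6.25 CPM in any other library. Their log2 fold changes of 3.47 (adjusted p = 0.459, edgeR) and 2.97 (adjusted p = 0.557, edgeR) turned to -0.25 and -0.60 without Prmt5 KO 1. Without that library Tdrkh was at -1.07 (adjusted p = 0.334, edgeR), against -1.01 with all libraries, and without Prmt5 KO 4 it was at -0.89 (adjusted p = 0.310, edgeR). The part of somatic RNA in the value of Tdrkh was not tested. Without both, Tdrkh was at -0.92 (adjusted p = 0.471, edgeR), Stk31 at -0.48, Tdrd3 at -0.39, Snd1 at -0.36, Tdrd12 at -0.13, Tdrd1 at -0.08, Tdrd5 at 0.33 and Tdrd7 at 0.48, and none of the 8 passed. The reasons why Prmt5 KO 4 was apart for Tdrd3, Tdrd7 and Tdrd12 were not tested.

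**Figure D5:**
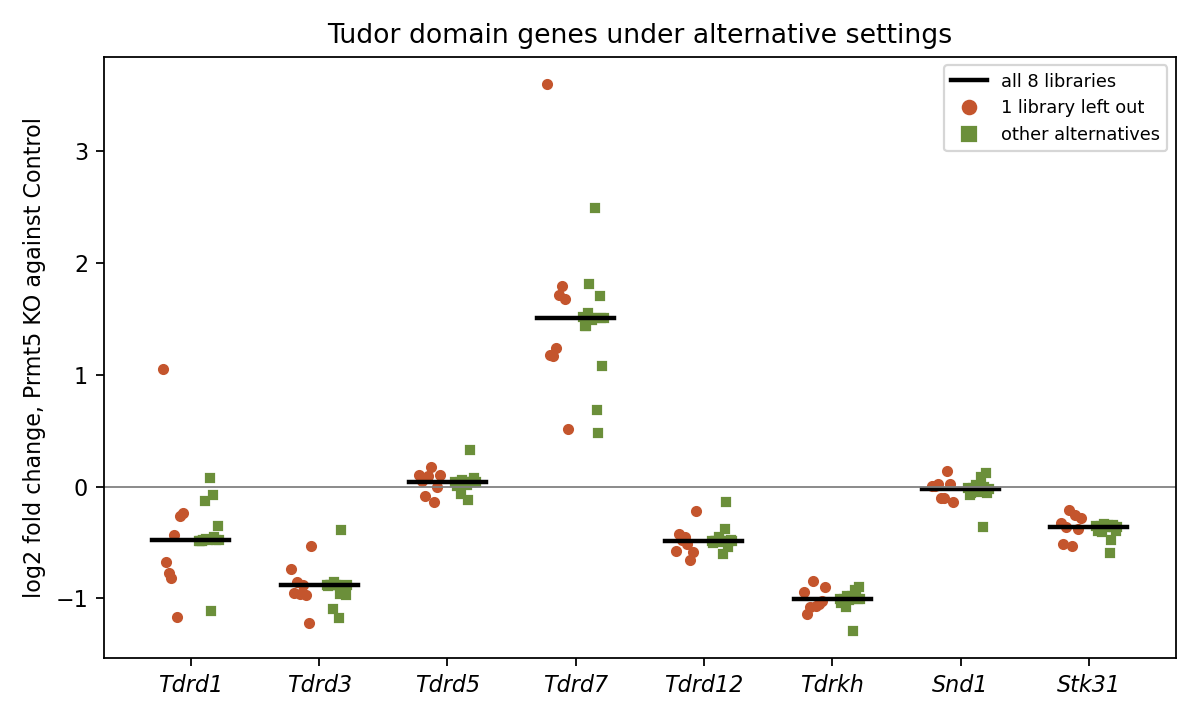
Log2 fold change of each tested member under every alternative (points), with the value as reported marked. Tdrkh, Tdrd3, Tdrd12 and Stk31 lie below 0 and Tdrd7 above 0 under each of 23 alternatives, while Tdrd1, Tdrd5 and Snd1 cross 0.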

How the data were processed

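RNA of 8 libraries was measured. The authors deposited raw counts per Ensembl transcript, listing transcripts with at least 1 count. No source used here names the aligner, the counter or the use of strand. Libraries were made from 50 pg of RNA by a single-cell protocol and sequenced on a SOLiD instrument, per the labels' protocols. Of 66262 transcript identifiers, 64258 (97%) matched the GENCODE annotation of GRCm38, and the 2004 others held 1.75 to 1.90% of the counts. Each gene was represented by the transcript whose counts summed highest across all libraries; these values held 44.5% of the matched counts.

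Groups were compared with edgeR's quasi-likelihood test (edgeR 4.0.16, limma 3.58.1, R 4.3.3) with filterByExpr (minimum count 10, minimum total 15), TMM scaling and robust estimation. P-values were adjusted by Benjamini-Hochberg over all genes tested, with a threshold of 0.05. Alternatives were DESeq2 1.42.0, limma voom, other scalings and filters, other gene values, equal depth and libraries left out. The edgeR fit was tested on simulated data. Intervals of fold changes cover 95%. The members and lists were chosen with earlier results of these data known. All members and Prmt5 are named; from each further list come the genes called (if none, the 2 of lowest unadjusted p) and, for other cell types, the marker with the highest level. The promoter search was added with the values known.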

Additional observations from a re-analysis of the deposited data

Results flagged for a closer look

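In 12 of 98 sets of 4 libraries 1 library lay far from the other 3 by Dixon's criterion (the gap to the nearest over the range). Chance gives about 1 in 20 for independent, normally distributed values. These sets are of unlogged values and overlap, as Acta2 and Col1a1 also enter the summed somatic markers, so the rates are not directly comparable. Control 1 was high for Tdrd1 (28.2 CPM), Tdrd7 (18.8 CPM) and Tek (28.9 CPM). Control 4 was high for Tdrd9 (5.28 CPM), Dppa5a (361 CPM) and the summed list of Sm proteins and relatives (883 CPM). Control 2 was high for Col1a1 (6.25 CPM). Prmt5 KO 1 was high for Acta2 (208 CPM), Col1a1 (92.9 CPM) and the summed somatic markers (527 CPM) and low for the summed list of Sm proteins and relatives (451 CPM). Prmt5 KO 4 was high for Tdrd7 (42.4 CPM).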

How the results depend on the processing

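Under each of 23 alternatives Tdrkh, Tdrd3, Tdrd12 and Stk31 kept a log2 fold change below 0 and Tdrd7 above 0; only DESeq2 put a member, Tdrkh, past the threshold. The number of genes called was 3, against 107 with DESeq2, 1 with limma voom, 7 with no filter, 1 with the replicate block, 0 without Control 2 and 3 (edgeR, 713 at an unadjusted p under 0.05), 1 without Prmt5 KO 1 and 4, 1 with summed transcripts and 1 to 2 with 1 library left out and 3 without mitochondrial genes. Of transcripts, 1 was called, 38 with no filter and 1 to 5 with a library left out.

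Directions changed mostly for values near 0. Tdrd1 was at 0.078 with the replicate block and -1.17 to 1.06 with a library left out; Tdrd5 at -0.063 with limma voom, -0.12 without Control 2 and 3 and -0.14 to 0.18 left out; Snd1 at 0.017 with no filter, 0.082 without Control 2 and 3, 0.12 with the longest transcript, -0.36 without Prmt5 KO 1 and 4 and -0.14 to 0.14 left out. Piwil2 gave -0.024 with upper-quartile scaling, -0.021 with total count, -0.082 with limma voom, -0.52 without Control 2 and 3, -0.045 without Prmt5 KO 1 and 4, and -0.23 to 0.54 left out. Ddx4 gave, in that order, -0.015, -0.0029, -0.16, -0.32, -0.47 and -0.31 to 0.28. Left out, Rnf17 ranged from -0.36 to 0.11, Lsm4 from -0.40 to 0.10, Acta2 from -0.25 to 3.88, Col1a1 from -0.60 to 3.47, Esam from -0.49 to 0.11 and Pecam1 from -0.11 to 0.074. Without Prmt5 KO 1 and 4, Lsm4 was at 0.14, Acta2 -0.20, Col1a1 -0.50, Csf1r 0.044 and Pecam1 0.0095; Pecam1 was at 0.0022 with no filter and 0.059 without Control 2 and 3. Transcript shares left out ranged from -0.249 to 0.858 percentage points (Tdrd5), -1.08 to 1.49 (Snd1) and -0.131 to 0.245 (Stk31). The causes were not tested. Tdrd9, with 52 reads in all, did not pass the filter with all 8 libraries.

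In their deviations from the group means, same-numbered libraries correlated at 0.069, 0.039, 0.0016 and 0.050. Numbers 1, 2 and 4 correlated best with their own number and number 3 with number 2. With so few libraries, values this small cannot decide if the replicate numbers pair the libraries.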
